A study of Mus musculus with 19 samples.

Results

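The 7 receptor genes CCR1, CCR2, CCR3, CXCR3, CXCR6, CX3CR1 and CCRL2 were taken by symbol from a table of 24982 genes and were followed across 4 groups of sorted mouse regulatory T cells (Tregs). All 7 were in the table, and all 7 were among the 11464 genes that passed the filter on low counts. The samples were bulk RNA-seq libraries, each from 50000 CD4+FoxP3-GFP+ T cells, purified by FACS from axillary, brachial and inguinal lymph nodes that drain the injury site. Cells were split by CD44 staining, and all mice were of the strain Foxp3DTR, in which the Foxp3 gene carries a GFP-tagged receptor for diphtheria toxin. Every group, the uninjured ones included, therefore carried this allele. Uninjured mice were labeled as sham. Injured mice were burned over 20% of their surface by immersion for 9 seconds in water at 90 °C, and cells were taken on day 7. Mice in the study were between 8 and 16 weeks old. There were 4 CD44high and 5 CD44low libraries from uninjured mice, and 4 CD44high and 6 CD44low libraries from injured mice. Among those 6, the titles of 3 end in a further number (1_2, 4_2, 5_2), called here a second number, without saying what it stands for. Nor do the labels say whether a library came from 1 mouse or from several, so p-values measure the spread between these libraries.

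Chemokines are small secreted proteins that guide leukocytes, and their receptors are G protein-coupled receptors on the cell surface. CCR1, CCR2, CCR3, CXCR3, CXCR6 and CX3CR1 bind chemokines that inflamed or barrier tissues produce, whereas CCR7 directs naive T cells into lymph nodes. CCRL2 is an atypical receptor that binds the chemoattractant chemerin and does not signal as the others do. Several of these receptors are also well known on cells other than T cells, such as CCR2 and CX3CR1 on monocytes and CCR3 on eosinophils.

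Library totals ran from 5582234 to 9433610 counts. All 10 CD44high subset markers, CD44 among them, were higher in CD44high libraries, and all 9 CD44low subset markers were lower, in uninjured as in injured mice. Over all genes tested, 24.7% were called higher and 21.3% lower in uninjured mice, and 20.1% and 17.2% in injured mice (edgeR, adjusted p under 0.05). Both lists were chosen with earlier results of these data known, so the counts describe the groups and do not test the sort. FOXP3, which defines Tregs, was between 47.7 and 181 CPM in every library. Markers of other cells were measured too. The 12 monocyte and macrophage genes summed to between 256 and 337 CPM (counts scaled to a fixed library total after TMM normalization) in uninjured CD44high, 199 and 409 in injured CD44high, 29.4 and 49.0 in uninjured CD44low and 49.99 and 195 in injured CD44low libraries. The 8 dendritic cell genes summed to between 875 and 1841, 848 and 1380, 342 and 549, and 474 and 1081 CPM in the same order of groups, the 8 NK and CD8 T cell genes to at most 166 CPM and the 6 B cell genes to at most 209 CPM in any library. Of the 12 monocyte and macrophage genes, 11 were detected in the uninjured groups, with CD14 at 0 in the CD44high and FCGR1 at 0 in the CD44low libraries, and all 12 were detected in both injured groups. LGALS3 of this list encodes galectin-3, a protein that the paper measured in Tregs by mass cytometry, higher in CD44high than in CD44low Tregs. Sums and counts over this list therefore include a gene that Tregs express. In a bulk sample, more cells that express a gene and more RNA per cell cannot be told apart.

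The genes lie on 2 chromosomes. In the order of RefSeq genes on mouse chromosome 9, CCR1, CCR3 and CCR2 stand close together with CXCR6 just before them, CX3CR1 stands further away next to CCR8, and CCRL2 is the most distant of the 6. CXCR3 is on chromosome X. The promoters of CCR2, CXCR6 and CXCR3 are given here because these 3 genes changed differently after injury in the 2 subsets. Each window holds 250 bases before and 50 after the RefSeq start site (GRCm38.p6). Capitals mark matches, on either strand, to the RUNX site ACCACA and the T-box core TCACAC. The AP-1 site TGANTCA was searched as well and was found in none of the 3 windows. Matches did not overlap.
CCR2 (chr9:124101933-124102232, plus strand): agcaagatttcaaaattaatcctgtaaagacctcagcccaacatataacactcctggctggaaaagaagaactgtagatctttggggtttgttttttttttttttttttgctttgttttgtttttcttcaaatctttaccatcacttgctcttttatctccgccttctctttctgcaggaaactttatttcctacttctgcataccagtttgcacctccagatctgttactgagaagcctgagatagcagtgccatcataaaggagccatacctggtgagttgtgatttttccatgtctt
CXCR6 (chr9:123806227-123806526, plus strand): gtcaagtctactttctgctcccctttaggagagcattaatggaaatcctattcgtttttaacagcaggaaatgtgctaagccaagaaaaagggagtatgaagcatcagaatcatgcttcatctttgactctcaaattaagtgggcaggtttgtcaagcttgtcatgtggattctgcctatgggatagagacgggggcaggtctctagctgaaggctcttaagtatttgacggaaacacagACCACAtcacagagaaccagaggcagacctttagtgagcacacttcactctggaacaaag
CXCR3 (chrX:101734098-101734397, minus strand): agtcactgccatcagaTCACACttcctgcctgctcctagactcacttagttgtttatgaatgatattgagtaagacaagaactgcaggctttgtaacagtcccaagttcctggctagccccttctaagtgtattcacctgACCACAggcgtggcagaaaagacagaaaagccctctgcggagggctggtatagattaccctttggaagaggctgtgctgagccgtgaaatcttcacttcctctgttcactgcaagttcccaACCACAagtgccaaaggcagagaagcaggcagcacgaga
The CXCR6 window had 1 RUNX match, 10 bases before the start site. CXCR3 had a T-box match 234 bases before the start site and RUNX matches 110 bases before and 11 bases after it. CCR2 had no match to any of the 3 motifs. Of all 32851 promoter windows, 14.5% held the T-box core, 16.8% the RUNX site and 7.81% the AP-1 site, so matches of this kind are common. Of the other members, CCR1 had 1 T-box and 1 RUNX match, CX3CR1 had 1 RUNX match, CCR3 had 1 AP-1 match, and each of the 3 CCRL2 windows had 2 T-box matches. The CCRL2 windows overlap, so the same sites recur among these matches.

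The first question was how the receptors differ between the subsets. All 7 genes were higher in CD44high than in CD44low Tregs in uninjured mice, where 24.7% of all genes tested were called higher and 21.3% lower (edgeR's quasi-likelihood test, Benjamini-Hochberg adjusted p under 0.05). All 7 were also higher in injured mice, where 20.1% of genes were called higher and 17.2% lower. The median log2 fold change of the 7 was 5.68 in uninjured and 4.20 in injured mice, against 0.01 and -0.00049 over all genes tested. For every gene the fitted difference was smaller in injured mice. Markers of other cells moved with the subsets as well. In uninjured mice 8 of 10 monocyte and macrophage, 6 of 7 dendritic cell, 2 of 7 NK and CD8 T cell and 1 of 6 B cell genes tested were higher in CD44high libraries, and in injured mice 4, 2, 3 and 0 were by edgeR (for B cell genes also 0 at an unadjusted p under 0.05 and 0 by DESeq2). Their part in the receptor differences was not tested.

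**Figure D1:**
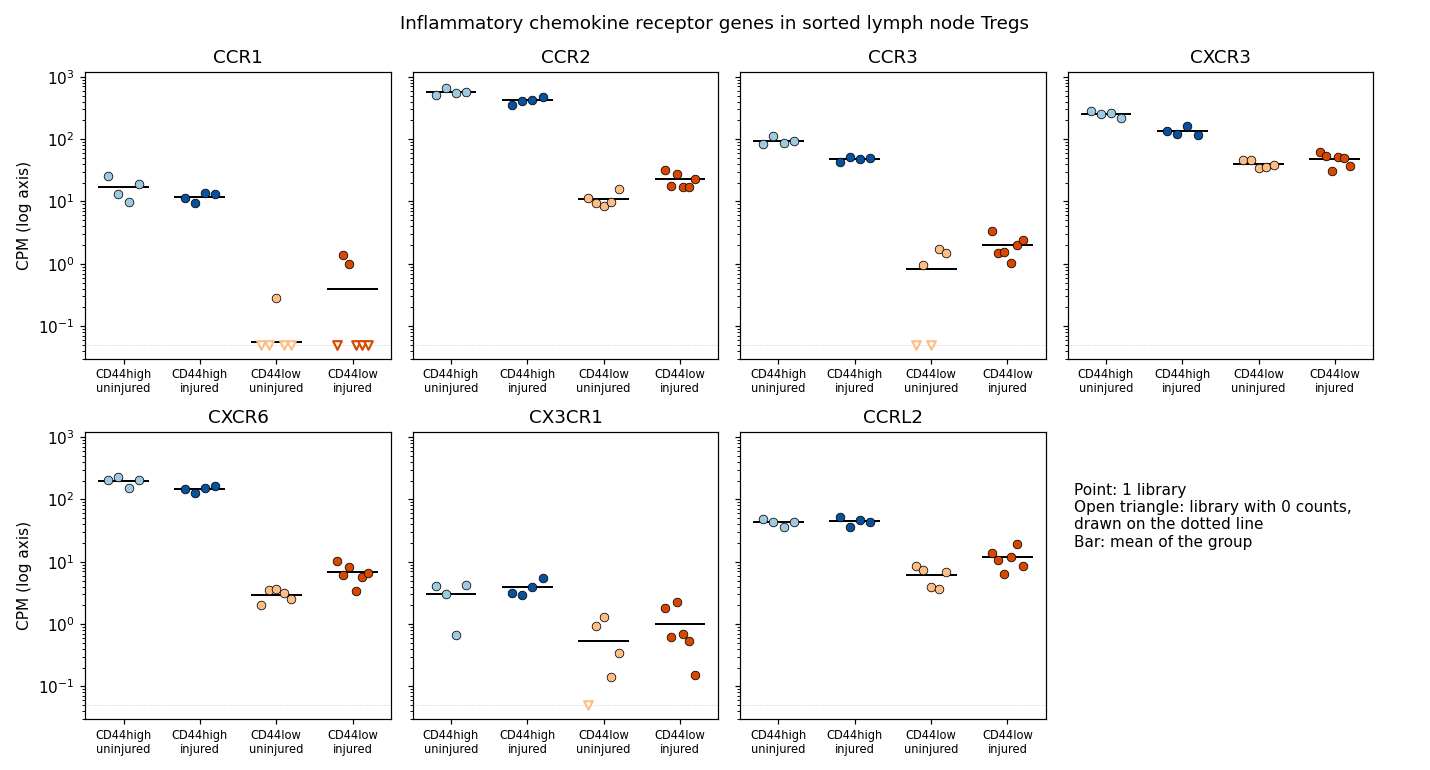
CPM on a log axis of each receptor gene in each of the 19 libraries, by group. Points are libraries, open triangles on the dotted line are libraries with 0 counts, and bars are group means. CD44high libraries lie above CD44low libraries for every gene in both conditions, except for 1 low uninjured CD44high library of CX3CR1 (0.667 CPM).

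CCR2, the receptor for monocyte chemoattractant proteins such as CCL2, had the most counts of the 7. In uninjured mice it was at 503, 652, 548 and 568 CPM in CD44high libraries 2 to 5, and at 11.6, 9.45, 8.52, 9.92 and 16.04 CPM in CD44low libraries 1 to 5. In injured mice it was at 358, 406, 422 and 482 CPM in CD44high libraries 2 to 5, and its CD44low values ran from 16.9 to 32.4 CPM with a median of 20.4. No ranges overlapped between any of the 4 groups, and the order from high to low was uninjured CD44high, injured CD44high, injured CD44low and uninjured CD44low.

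CXCR6, the receptor for the transmembrane chemokine CXCL16, followed the same order. It was at 202, 231, 150 and 203 CPM in uninjured CD44high libraries 2 to 5 and at 146, 126, 153 and 165 CPM in injured ones. In CD44low libraries 1 to 5 of uninjured mice it was at 2.03, 3.47, 3.69, 3.16 and 2.53 CPM, and in those of injured mice it ran from 3.45 to 10.3 CPM with a median of 6.35. The subsets were far apart, while injured and uninjured values overlapped within each subset. The log2 difference between subsets was 6.03 (SE 0.221, adjusted p = 1.00e-15) in uninjured and 4.44 (SE 0.186, adjusted p = 1.79e-14) in injured mice by edgeR.

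CXCR3, the receptor for CXCL9, CXCL10 and CXCL11 and a marker of type 1 T cells, was the member best expressed in CD44low Tregs. It was at 279, 257, 260 and 216 CPM in uninjured CD44high libraries 2 to 5 and at 137, 122, 164 and 118 CPM in injured ones. CD44low libraries 1 to 5 of uninjured mice had 46.3, 46.3, 34.2, 36.1 and 39.0 CPM, and those of injured mice had 30.5 to 62.0 CPM with a median of 50.9. Thus injured CD44high libraries lay wholly below uninjured ones, and the CD44low groups overlapped. The log2 difference between subsets was 2.65 (SE 0.165, adjusted p = 4.63e-12) in uninjured and 1.51 (SE 0.152, adjusted p = 3.01e-08) in injured mice by edgeR.

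CCR3, the receptor for the eotaxins, was at 82.4, 111, 85.2 and 92.4 CPM in CD44high libraries 2 to 5 of uninjured mice. Injured CD44high libraries 2 to 5 had 42.5, 51.0, 48.1 and 50.6 CPM, all below the uninjured ones. Uninjured CD44low libraries 1 to 5 had 0, 0.945, 0, 1.72 and 1.52 CPM, and injured ones 1.03 to 3.42 CPM with a median of 1.77. A library with 0 counts allows up to 3 counts, which was 0.426 to 0.506 CPM in these uninjured CD44low libraries. CCR3 therefore stood at 27 counts over 5 libraries and 79 counts over 6 libraries in CD44low Tregs, against 2378 and 1634 in CD44high Tregs. The 8 markers of eosinophils, basophils and mast cells summed to between 0 and 1.43 CPM in uninjured CD44high, 1.73 and 4.19 in injured CD44high, 0.862 and 3.04 in uninjured CD44low and 1.19 and 12.7 in injured CD44low libraries, the last value in library 5. EPX, PRG2 and MS4A2 were at 0 in all 19 libraries. The 1 gene of the list that was tested, CPA3 of mast cells and basophils, was lower in CD44high than in CD44low Tregs of uninjured mice (log2 -2.55). CPA3 rose in CD44high Tregs after injury by 3.44 on the log2 scale, where the whole list summed to at most 4.19 CPM. The part of these cells in the CCR3 level was not tested.

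CCR1, a receptor for CCL3 and CCL5, was at 25.7, 13.2, 9.84 and 18.9 CPM in uninjured CD44high libraries 2 to 5 and at 11.6, 9.32, 13.6 and 12.97 CPM in injured ones. These ranges overlapped. In CD44low Tregs it was nearly undetected. In uninjured mice 2 counts in all came from library 3, and in injured mice 11 counts came from library 2 and 7 from library 5, with 0 counts in the other libraries. Counts were pooled over the libraries of a group and divided by their summed normalized totals. The ratio of CD44high to CD44low Tregs was then 277 in uninjured mice (95% exact counting interval 76.3 to 2296) and 26.1 in injured mice (interval 16.3 to 44.5). These intervals cover counting error only, and the fitted log2 difference in uninjured mice (7.74) rests on 2 counts.

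CCR1 was compared with monocyte and macrophage genes from library to library. The 2 injured CD44low libraries with CCR1 counts had the 2 highest monocyte and macrophage sums of that group, 94.9 CPM in library 2 and 195 CPM in library 5, against 49.99 to 68.6 in the other 4. LYZ2, which encodes a lysozyme of monocytes, macrophages and neutrophils, was at 65.5 and 120 CPM in these libraries and at 29.5 to 44.8 in the others. In uninjured CD44high libraries 2 to 5, LYZ2 was at 111, 43.4, 53.2 and 93.2 CPM, and the 2 libraries highest in LYZ2 were also highest in CCR1. In injured CD44high libraries 2 to 5 it was at 101, 69.0, 106 and 199 CPM, and library 5, the highest in LYZ2, was not the highest in CCR1. With group means taken out, LYZ2 was the gene whose log2 CPM was most like CCR1 over the 19 libraries (Pearson r = 0.79), a description over libraries that also share depth and sort. CD300LB and CTGF followed at 0.76 each. An r of this size was usual for a best match among all genes tested. Those of the other members were higher, from 0.80 for CXCR3 to 0.90 for CCRL2. Injured CD44low library 2 also had the highest neutrophil sum of that group (30.8 CPM). The part of these cells in the CCR1 level was not tested.

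**Figure D2:**
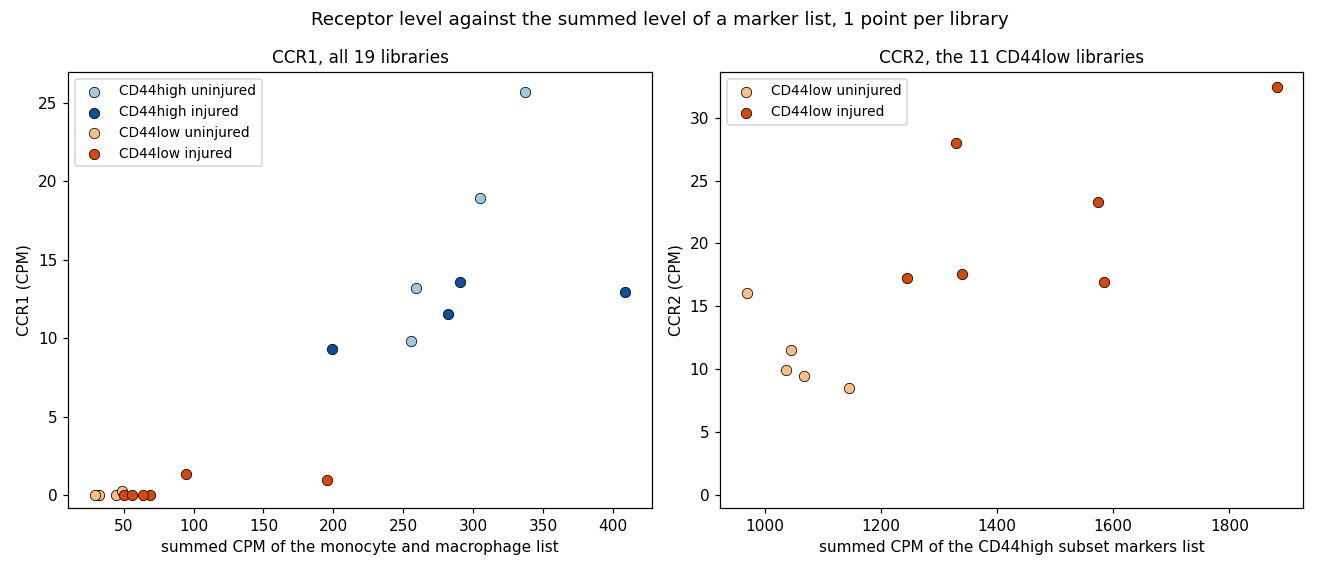
Left, CCR1 in CPM against the summed CPM of 12 monocyte and macrophage genes in 19 libraries, and right, CCR2 in CPM against the summed CPM of 10 CD44high subset markers in the 11 CD44low libraries. In CD44low Tregs CCR1 was above 0.5 CPM only in 2 injured libraries, those with the highest sums of the group, and all 6 injured libraries had more CCR2 and higher subset marker sums than the 5 uninjured ones.

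CX3CR1, the receptor for fractalkine, was the least expressed member in CD44high Tregs. Uninjured CD44high libraries 2 to 5 had 4.10, 3.05, 0.667 and 4.18 CPM and injured ones 3.19, 2.96, 3.88 and 5.50 CPM. Uninjured CD44low libraries 1 to 5 had 0, 0.945, 1.28, 0.144 and 0.338 CPM, and injured ones 0.150 to 2.28 CPM with a median of 0.656. The subsets overlapped in uninjured mice through CD44high library 4 and did not overlap in injured mice. The log2 difference was 2.42 (SE 0.694, adjusted p = 0.00633) and 1.91 (SE 0.599, adjusted p = 0.0147) by edgeR. The call in injured mice was lost without CD44high library 5 (log2 1.70, adjusted p = 0.0575) and without the 3 libraries with a second number (log2 1.31, adjusted p = 0.157).

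CCRL2 was at 48.5, 43.4, 36.5 and 42.9 CPM in uninjured CD44high libraries 2 to 5 and at 52.6, 36.1, 47.3 and 42.8 CPM in injured ones, which were interspersed. CD44low libraries 1 to 5 of uninjured mice had 8.44, 7.40, 3.97, 3.59 and 6.75 CPM, and those of injured mice had 6.28 to 19.6 CPM with a median of 11.2. The log2 difference between subsets was 2.83 (SE 0.264, adjusted p = 5.40e-09) in uninjured and 1.93 (SE 0.234, adjusted p = 5.30e-07) in injured mice by edgeR. It was the only member besides CX3CR1 whose mean was higher in injured than in uninjured CD44high Tregs.

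Levels of different genes were compared per kilobase of merged exon (GENCODE vM21), since counts favor long transcripts and CCR2, at 6760 bases, has the longest of the 7. On this scale CXCR3 led in uninjured CD44high Tregs with 146 ± 15.2 CPM per kb (SD, n = 4), followed by CXCR6 with 102 ± 17.4, CCR2 with 84.0 ± 9.22, CCR3 with 28.3 ± 3.89, CCRL2 with 16.5 ± 1.89, CCR1 with 5.97 ± 2.45 and CX3CR1 with 0.666 ± 0.364. CXCR6 and CCR2 lay within the sum of their SDs. In injured CD44high Tregs CXCR3 (78.0 ± 11.98) and CXCR6 (76.3 ± 8.41) were no longer apart. In CD44low Tregs the order changed, and CXCR3 stood alone at 23.3 ± 3.27 CPM per kb (n = 5) in uninjured and 27.4 ± 6.67 (n = 6) in injured mice. CCRL2 was next with 2.32 ± 0.825 and 4.54 ± 1.79, and CCR2 and CXCR6 were at 1.64 ± 0.440 and 1.54 ± 0.354 in uninjured and 3.34 ± 0.964 and 3.49 ± 1.20 in injured mice. In both conditions CCRL2, CCR2 and CXCR6 lay within the sums of their SDs, so their order is not settled.

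Next, the receptors were expressed as shares of the summed counts of 23 chemokine receptor genes in each library, in which library size cancels. The 7 genes together made up 44.6% ± 1.33 of receptor counts in uninjured CD44high Tregs (SD, n = 4) and 38.1% ± 2.80 in injured ones (n = 4). In CD44low Tregs they made up 5.01% ± 0.527 (n = 5) and 6.55% ± 0.626 (n = 6). CCR7 alone took 78.1% ± 1.803 and 74.9% ± 1.27 of the receptor counts in CD44low Tregs, against 11.2% ± 0.668 and 15.2% ± 0.869 in CD44high Tregs. Without CCR7 among the receptors, the 7 genes made up 50.3% and 44.9% in CD44high and 23.05% and 26.1% in CD44low Tregs. CCR2 was the largest share in CD44high Tregs, 21.6% ± 1.46 in uninjured and 19.6% ± 2.13 in injured mice, and 0.896% ± 0.213 and 1.62% ± 0.439 in CD44low Tregs. Of the 28 share tests (exact permutation test over libraries, two-sided, adjusted over the 28), 12 of the 14 between subsets had an adjusted p of 0.0342, and those of CX3CR1 had 0.148 in uninjured and 0.0593 in injured mice.

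After injury the share of CXCR3 in CD44high Tregs fell from 9.66% ± 1.25 to 6.37% ± 1.09, and that of CCR3 from 3.52% ± 0.296 to 2.26% ± 0.175 (exact permutation test, n = 4 and 4, p = 0.0286, the smallest this design allows, adjusted p = 0.0471 for both). In CD44low Tregs the share rose for CCR2 (adjusted p = 0.0342), CXCR6 from 0.246% ± 0.0718 to 0.481% ± 0.149 (adjusted p = 0.0346) and CCRL2 from 0.482% ± 0.145 to 0.835% ± 0.288 (adjusted p = 0.0471) by the exact permutation test with n = 5 and 6. The 6 injured libraries include those with a second number, counted here as separate samples although the labels do not say that they are. For the other 9 shares the adjusted p ran from 0.0842 to 0.758, and CXCR3 stayed at 3.27% ± 0.390 and 3.37% ± 0.645 of receptor counts in CD44low Tregs. Many of these adjusted p-values rose above the threshold when 1 library was left out. Fewer libraries also raise the smallest p that the test can give, and the part of this in the rise was not tested. In the CD44low comparison, with n = 5 and 6, the smallest p of the exact permutation test was 0.00433, well below the threshold.

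The receptors also differed in proportion to each other. Of the counts of the 7 genes, CCR2 made up 48.4% ± 2.97 in uninjured CD44high Tregs and 17.9% ± 3.88 in uninjured CD44low Tregs, whereas CXCR3 made up 21.7% ± 2.83 and 65.2% ± 3.63. After injury, CXCR3 made up 16.8% ± 2.55 in CD44high and 51.3% ± 7.73 in CD44low Tregs, and CCR2 51.6% ± 3.49 and 24.9% ± 7.08. The direction of the CXCR3 difference between subsets thus depends on what it is divided by: it was higher in CD44high Tregs as a share of all 23 receptors and lower as a share of the 7 genes or of the receptors without CCR7. CCRL2 turned in the same way.

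**Figure D3:**
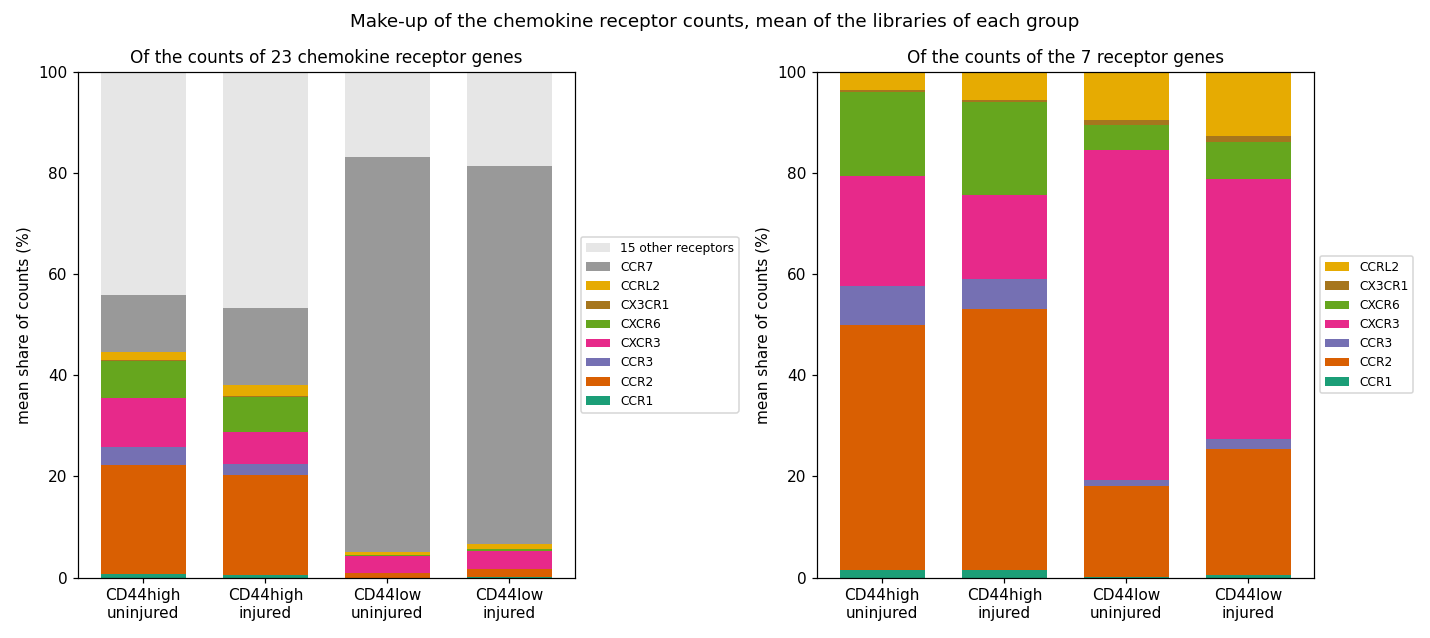
Stacked bars of the mean share of counts (%) in each group, from 0 to 100, of 23 chemokine receptor genes (left) and of the 7 genes alone (right). CCR7 takes 78.1% and 74.9% of receptor counts in CD44low Tregs, and CXCR3 takes 65.2% and 51.3% of the counts of the 7 genes there, against 21.7% and 16.8% in CD44high Tregs.

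The next comparison asked what changed after injury in each subset. In CD44high Tregs, 0 of the 7 genes were higher and 1 was lower after injury, where 1.06% of genes tested were called higher and 1.33% lower. The median log2 fold change of the 7 was -0.44, against -0.02 over all genes. CXCR3 was the gene called. It fell by 0.90 on the log2 scale (SE 0.167, adjusted p = 0.00306, edgeR), from 253 ± 26.3 to 135 ± 20.7 CPM (SD, n = 4 and 4), and was past the threshold in 27 of 27 alternatives, with values between -1.01 and -0.84.

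CCR3 was 0.95 lower on the log2 scale in CD44high Tregs after injury (SE 0.272, adjusted p = 0.0667 by edgeR), a change of similar size that did not pass the test although the 4 injured libraries lay below the 4 uninjured ones. DESeq2 on all 4 groups called it (adjusted p = 0.000154), as did edgeR on the CD44high libraries alone (adjusted p = 0.000559), and edgeR also called it without CD44low library 1 or 3 of uninjured mice (adjusted p = 0.0358 and 0.0387) or injured CD44low library 1_2 (0.0492). For CCR2 the log2 value was -0.44 (adjusted p = 0.197) and for CXCR6 -0.42 (adjusted p = 0.255), and 95% intervals of both, -0.78 to -0.11 and -0.76 to -0.07, lay below 0. CCR2 was called by edgeR on the CD44high libraries alone (log2 -0.42, adjusted p = 0.0316). CCR1 was at -0.51, CX3CR1 at 0.36 and CCRL2 at 0.06, with intervals that held 0.

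In CD44low Tregs, 3 of the 7 genes rose after injury and none fell, where 4.24% of genes tested were called higher and 3.36% lower. The median log2 fold change was 1.03, against 0.01 over all genes. CCR2 rose by 1.03 on the log2 scale (SE 0.180, adjusted p = 0.00178), CXCR6 by 1.18 (SE 0.230, adjusted p = 0.00397) and CCRL2 by 0.96 (SE 0.252, adjusted p = 0.0225), all by edgeR. In CPM, CCR2 went from 11.1 ± 2.97 to 22.6 ± 6.52, CXCR6 from 2.98 ± 0.684 to 6.74 ± 2.32 and CCRL2 from 6.03 ± 2.14 to 11.8 ± 4.65 (SD, n = 5 and 6). CCR2 values did not overlap, and those of CXCR6 and CCRL2 did.

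CXCR3, the member best expressed in this subset, did not pass the test in CD44low Tregs (log2 0.23, 95% interval -0.06 to 0.52, adjusted p = 0.341). CCR3 was at 1.24 (SE 0.465, adjusted p = 0.0933) and CX3CR1 at 0.88 (adjusted p = 0.441). The ratio of pooled CCR1 counts, scaled to the library totals, was 7.39 (95% exact counting interval 1.77 to 65.7, from 18 and 2 counts). By edgeR CCR1 was at 2.53 on the log2 scale (adjusted p = 0.165), and it was called with the 3 second-number libraries left out (3.41, adjusted p = 0.0238). The call of CCR2 held in 27 of 27 alternatives. That of CXCR6 was lost when injured libraries 1, 2 and 5 were left out together (log2 0.84, adjusted p = 0.0611). That of CCRL2 was lost in 5, among them without uninjured CD44low library 3 or 4 (log2 0.87 and 0.85, adjusted p = 0.0544 and 0.0533) and without the 3 libraries with a second number (0.78, adjusted p = 0.0509), while CCR3 was called without uninjured library 4 (log2 1.75, adjusted p = 0.0468) and by DESeq2 (1.28, adjusted p = 0.00818).

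Other genes moved with these. In CD44low Tregs 6 of the 10 CD44high subset markers rose after injury, among them KLRG1 by 1.68 and S100A6 by 1.24 on the log2 scale, and the summed level of the list went from between 969 and 1145 CPM to between 1245 and 1882 CPM, without overlap. CD44 itself did not pass the test (log2 -0.18, adjusted p = 0.284). Of the 10 monocyte and macrophage genes tested 4 rose, LYZ2, ITGAM, TYROBP and LGALS3 (named after their values were seen), by 1.27, 3.87, 1.34 and 1.86 on the log2 scale, and the sums of the list in all 6 injured libraries were above those of the 5 uninjured ones. Of these, LGALS3 is also expressed by Tregs, as given above. In CD44high Tregs 3 of the 9 CD44low subset markers rose after injury, among them SATB1 by 1.56 and TCF7 by 0.60 on the log2 scale. Of the other lists, 0 of 6 Treg identity genes, 0 of 7 dendritic cell genes and 0 of 6 B cell genes tested were called after injury in either subset by edgeR. At an unadjusted p under 0.05 there were 2, 2 and 0 in CD44high and 1, 3 and 0 in CD44low Tregs, and DESeq2 called 1 dendritic cell gene in CD44low Tregs. Of the neutrophil genes, 1 of 2 tested, S100A9 (named after its values were seen), rose in both. In CD44low Tregs 1 of 7 NK and CD8 T cell genes, KLRB1C, rose after injury, and in CD44high Tregs CPA3 rose (both named after their values were seen). The part of these shifts in the receptor changes was not tested.

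**Figure D4:**
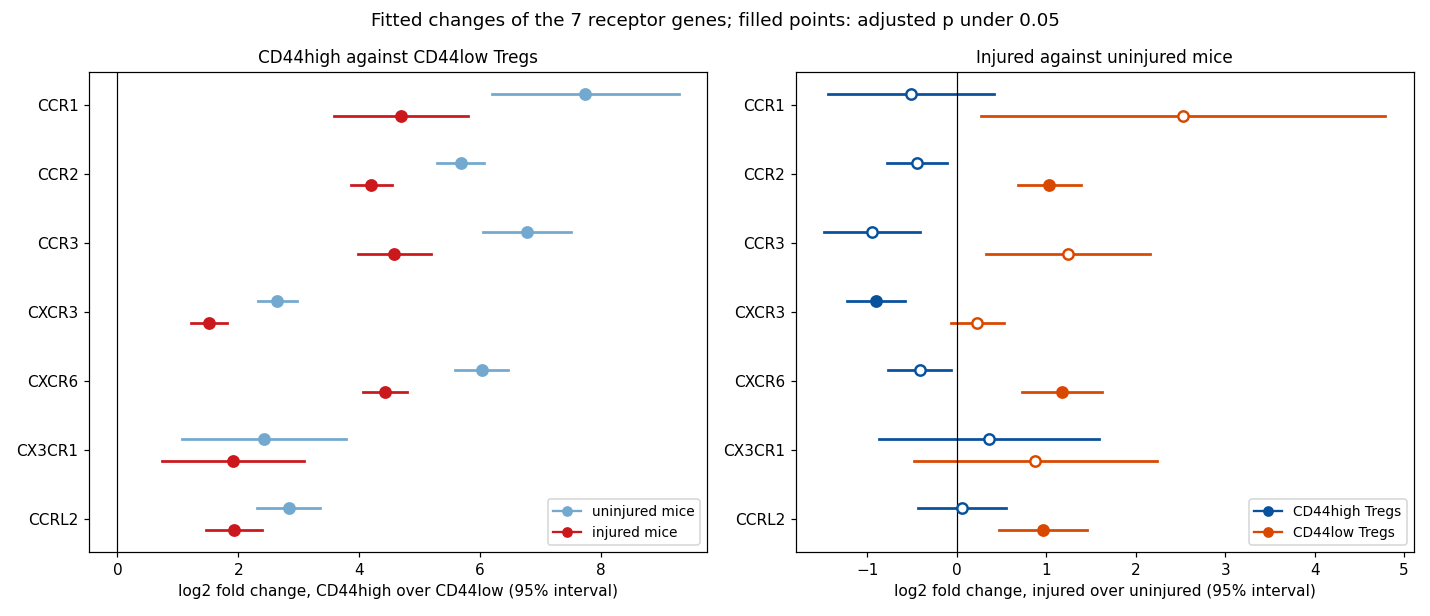
Fitted log2 fold changes with 95% intervals of the 7 genes, between subsets (left, in uninjured and injured mice) and after injury (right, in each subset). Filled points have an adjusted p under 0.05. After injury CXCR3 was the filled point below 0 in CD44high Tregs, and CCR2, CXCR6 and CCRL2 were the filled points above 0 in CD44low Tregs.

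Whether injury acted differently on the subsets was tested as the difference between the 2 changes. It was negative for all 7 genes and passed the test for 3, where 0.192% of genes tested were called higher and 0.454% lower. A negative difference was not particular to these receptors. It was positive for 0 of 10 CD44high subset markers, 0 of 10 monocyte and macrophage genes and 0 of 7 dendritic cell genes tested. By contrast, 8 of 9 CD44low subset markers and 5365 of all 11464 genes tested had a positive difference. For the receptors called, the value was -1.59 on the log2 scale for CXCR6 (SE 0.291, adjusted p = 0.00671), -1.48 for CCR2 (SE 0.249, adjusted p = 0.00321) and -1.13 for CXCR3 (SE 0.224, adjusted p = 0.0138) by edgeR. On the log2 scale the gap between subsets narrowed mainly from the CD44low side for CCR2 and CXCR6, and from the CD44high side for CXCR3. In CPM the larger change of all 3 was in CD44high Tregs. Mean CCR2 went from 568 to 417 CPM there and from 11.1 to 22.6 in CD44low Tregs, and CXCR6 from 196 to 147 and from 2.98 to 6.74. The differences of the 3 genes passed in 26 of 26 alternatives that gave a value.

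The other 4 differences did not pass. CCR3 was at -2.19 (SE 0.536, adjusted p = 0.0585 by edgeR) and was called by DESeq2 (adjusted p = 2.98e-05) and, with edgeR, without uninjured CD44low library 4 or 5 (adjusted p = 0.0292 and 0.0475) or injured CD44low library 1_2 (0.0441). CCRL2 was at -0.90 (adjusted p = 0.315), CX3CR1 at -0.52 (adjusted p = 0.896) and CCR1 at -3.05 (SE 1.24, adjusted p = 0.353).

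The 16 other chemokine receptors gave a comparison within the family, and 10 of them passed the filter on low counts. In uninjured mice 6 of the 10 were higher and 3 lower in CD44high Tregs, and in injured mice 6 were higher and 2 lower. CCR7 and CCR9 were lower in both, and CXCR5 was lower in uninjured mice (log2 -0.58) but not called in injured mice (log2 0.40). After injury CCR10, a skin-homing receptor, fell in CD44high Tregs by 1.44 and rose in CD44low Tregs by 1.77 on the log2 scale, with a difference of -3.21 (SE 0.427, adjusted p = 0.000422, edgeR), in the direction of CCR2 and CXCR6. CXCR5, the receptor of B cell follicles, rose in CD44high Tregs by 1.496, and CCR4 rose in CD44low Tregs by 0.69.

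Of 18 genes for ligands of the 7 receptors, 7 passed the filter. CCL5, a ligand of CCR1 and CCR3, was higher in CD44high than in CD44low Tregs in uninjured mice (log2 2.77) and fell in CD44high Tregs after injury by 1.25 on the log2 scale (adjusted p = 0.00623), from 32.2 ± 5.46 to 13.5 ± 3.46 CPM. CXCL10, a CXCR3 ligand, was higher in CD44high Tregs in both conditions (log2 1.73 and 2.51). CCL8, a listed chemokine made mostly by myeloid cells, rose after injury in both subsets, by 2.83 and 1.81 on the log2 scale. Of the 24 genes tested for signaling downstream of chemokine receptors, such as G proteins, arrestins and the exchange factor DOCK2, 0 were called after injury in either subset by edgeR. At an unadjusted p under 0.05 there were 3 in CD44high and 4 in CD44low Tregs, and DESeq2 called 1 and 0.

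Each receptor also had a nearest gene in pattern, by Pearson r of log2 CPM over the 19 libraries, which share the 4 groups. CCR2 and CXCR6 were close to each other (r = 0.99), GNA15 was closest to CXCR6 (0.99), and CTGF was closest to CCR1 (0.98). ANXA6 was closest to CXCR3 (0.98), MAGED1 and KLRG1 to CCR3 (0.97), KNSTRN to CCRL2 (0.97) and CTSH to CX3CR1 (0.92). With group means taken out, r of CCR2 with CXCR6 was 0.39, while KNSTRN stayed closest to CCRL2 (0.90). Among the 7 genes, the highest r within groups was that of CXCR3 with CCRL2 (0.73), and CTSH was still among the 3 closest to CX3CR1 (0.80).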

How the data were processed

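RNA-seq counts came from the authors' deposited table: raw whole-number counts per gene, made with STAR in the VIPER workflow, not normalized, replicates kept apart. The submitters' processing notes name STAR 2.5 and bcl2fastq 2.18, and both mm9 and mm10. For the annotation, no name was found in the sources used here. All 19 columns were mapped by label.

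Counts were analyzed with R 4.3.3 and edgeR 4.0.16 (TMM factors, 0.97 to 1.04, filter with a minimum count of 10, 1 mean for each of 4 groups, quasi-likelihood test, two-sided, Benjamini-Hochberg adjustment over 11464 genes). Genes with an adjusted p below 0.05 were called, and a prior count of 2 went into log2 CPM. Shares were compared with exact permutation tests (Python 3.11.15, scipy 1.17.1). Exact counting intervals cover counting error only and leave out the spread between libraries. They take each read as independent, although reads carry no molecular identifiers. Figures were drawn with matplotlib 3.10.9. Both tests were tried on simulated data.

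The 7 genes and all gene lists were chosen with earlier results of these data known. Genes named were the 7, other chemokine receptors, genes called in the other lists (up to 4 per direction), and the 3 genes most like each member. Markers of other cell types were named after their values were seen. Alternatives were DESeq2 1.42.0, RLE factors, edgeR fitted to only the groups compared, every gene with a count, a replicate block, the 3 injured CD44low libraries with a second number left out, used alone or summed with those of the same first number, a 2-fold limit, each library left out, and other denominators of the shares.

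At most 1.63% of the windows of 50 bases in the transcripts of a member (GENCODE vM21) also occurred in another chemokine receptor's. Exon lengths came from the same release, and promoter windows from RefSeq (GRCm38.p6). Neither is known to be the annotation behind the counts. Protein sequences were not used here.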

Additional observations from a re-analysis of the deposited data

Results flagged for a closer look

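In 3 of the 7 genes the injury change differed between the subsets by the test of the difference itself. The log2 difference (CD44high change minus CD44low change) was -1.48 for CCR2, -1.13 for CXCR3 and -1.59 for CXCR6.

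CCR1 in uninjured CD44low library 3 stood apart from the other 4 libraries of its group, at -0.81 on the log2 CPM scale with a prior count of 2, because it held 2 counts and the others 0. Of 28 groups of libraries examined for a value that stands apart, 4 to 6 libraries each, chance alone marks about 1 in 20.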

How the results depend on the processing

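All 7 genes stayed higher in CD44high than in CD44low Tregs in every alternative, although CX3CR1 in injured mice was not always past the threshold. After injury in CD44high Tregs, 1 gene was called, against 2 with DESeq2, 2 with the second-number libraries left out, 2 with libraries summed, 3 (CCR2, CCR3 and CXCR3) with edgeR on the compared groups alone and 0 with a 2-fold limit; leaving out single libraries gave 1 to 2. The difference between the subsets was called for 5 genes with the second-number libraries left out. Leaving out injured CD44low libraries 1, 2 and 5 together turned the change in CD44low Tregs of CCR1 (-2.13) and CX3CR1 (-0.25) and their differences between the subsets (1.62 and 0.62), all on few counts. Without single libraries CCRL2 in CD44high Tregs ran from -0.014 to 0.15, and turned at -0.0056 and -0.014. The summed share of the 7 genes in uninjured and injured CD44high Tregs was 31.9% and 26.1% per transcript length and 50.3% and 44.9% without CCR7. In injured CD44low Tregs it was 5.595% per transcript length, and without CCR7 it was 23.05% and 26.1% in uninjured and injured CD44low Tregs. As shares of the 7 genes alone, differences in percentage points turned after injury in CD44high Tregs for CCR1 (0.0106), CCR2 (3.15) and CXCR6 (1.53), in CD44low Tregs for CXCR3 (-13.9), and between subsets in uninjured and injured mice for CXCR3 (-43.6 and -34.6), CX3CR1 (-0.668 and -0.628) and CCRL2 (-5.86 and -7.17). Without CCR7 they turned for CXCR3 (-4.12 and -5.90, and -1.57 after injury in CD44low Tregs), CX3CR1 (-0.0730 and -0.0789) and CCRL2 (-0.370 and -0.823). Without single libraries the share change of CCR1 in CD44high Tregs ran from -0.170 to 0.0311 (above 0 without uninjured library 2), and that of CXCR3 in CD44low Tregs from -0.0244 (without injured library 1_2) to 0.295. Apart from the denominators, which set the shares by construction, the cause was not tested. Correlations of same-numbered libraries between groups ran from -0.0662 to 0.167, and those of other pairs from -0.452 to 0.410. Between the subsets of uninjured mice they ran from -0.00685 to 0.119 for the same number and from -0.0798 to 0.0395 for other pairs. Whether replicate numbers pair the samples was therefore not settled. With the number as a replicate block, CCRL2 in CD44low Tregs lost its call (0.89, adjusted p = 0.0503, edgeR) and no other call of the 7 genes changed. Depth limits CCR1, CCR3 and CX3CR1 in CD44low Tregs.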
